A study of Mus musculus with 4 samples.

Results

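Of the 18193 genes that the array measured under a single symbol in mouse prefrontal cortex, 5 are described here: Prss23, Tmem123, Clic4, Btg1 and Ankrd24. They stood outside the cell type and pathway lists drawn up for these data and were chosen by their measured log2 values, because their probe sets were seen to lie apart between threat and control mice. Every probe set whose annotation gives one of these 5 symbols and no other was taken, which makes 14 of 45037 probe sets, with 3 each for Prss23, Clic4, Btg1 and Ankrd24 and 2 for Tmem123. A probe set is a group of short probes that together read 1 transcript. The values that chose the genes are those of the threat against control contrast, so that contrast is described below without a test.

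The samples were 2 pools of mice under repeated social threat (environment HighThreat) and 2 pools of control mice (environment LowThreat). Each pool held total RNA of 5 mice and was read on 1 Affymetrix MOE430 2.0 array. No strain, sex, age or genotype is given in the labels used here, nor whether the pools were kept or handled apart. Differences between pools therefore measure the spread of pool averages and not that of single mice, and 2 pools a side limit the precision. Values are log2 expression, so that a difference of 1 is a doubling, and differences are threat minus control.

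Any pair of arrays correlated at 0.994 to 0.996 over the probe sets. Probe sets with a mean above 5.56, the median of all of them, are called bright below and the others dim. The 27 control probe sets for Bacillus transcripts, which should find no target in mouse RNA, reached at most 4.25 and mark the background. The log2 ratio of the 3′ to the 5′ control probe set, a sign of RNA integrity, was higher in the threat pools by 0.038 for Gapdh and by 0.051 for Actb, beside gaps of 0.062 and 0.131 between the threat pools and of 0.028 and 0.086 between the control pools.

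The 5 genes belong to no common pathway. Prss23 encodes a secreted trypsin-like serine protease. Tmem123, also called porimin, encodes a heavily glycosylated membrane protein of the sialomucin type. Clic4 encodes a protein of the chloride intracellular channel family, which has the fold of glutathione S-transferases, moves between cytosol and membranes, and takes part in the tube formation of endothelial cells. Btg1 encodes an antiproliferative protein that brings the CCR4-NOT deadenylase to messenger RNAs and is abundant in resting cells. Ankrd24 encodes a protein of ankyrin repeats and coiled coils that, in mouse hair cells, organises Triobp at the base of the stereocilia.

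Prss23, Tmem123, Clic4 and Btg1 were lower and Ankrd24 was higher in the threat pools, in each case by every bright probe set. All 9 bright probe sets of the first 4 genes had both threat pools below both control pools, and both bright probe sets of Ankrd24 had both threat pools above both control pools. In whole tissue, fewer cells of a type and less RNA per cell cannot be told apart. The label under which the genes were grouped, a shift across all probe sets, did not hold for the 3 dim probe sets. Those of Prss23 and Btg1 differed by -0.13 ± 0.10 and -0.08 ± 0.16 (SE, n = 2 pools each), and that of Ankrd24 lay on the other side of 0 from its bright ones, at -0.21 ± 0.12. With all 14 probe sets, 13 had separate pools, meaning that the threat pools lay on 1 side of both control pools. Among all probe sets, the pools were separate with threat lower in 19.4% and with threat higher in 23.9%. Among bright ones these shares were 16.8% and 32.3%. Of the 14, 7 were lower and 1 higher by at least 1.5-fold with separate pools, which 0.719% and 0.111% of all probe sets were.

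**Figure D1:**
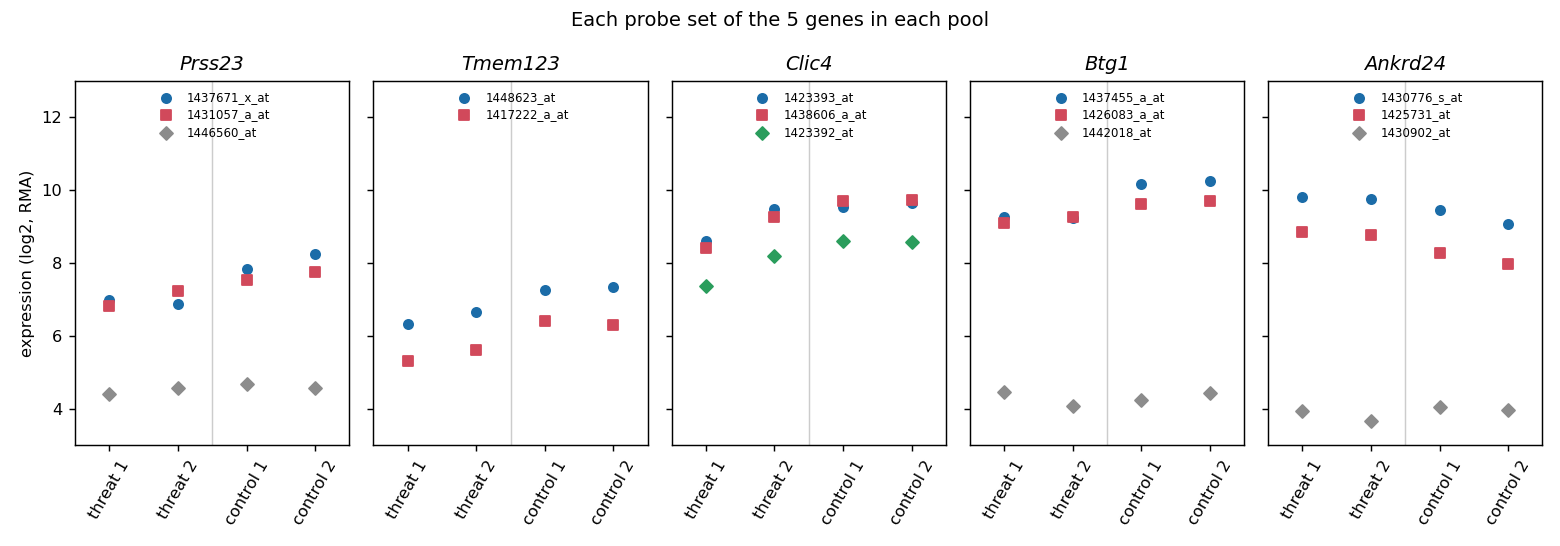
Expression (log2, RMA) of each of the 14 probe sets in each of the 4 pools, with 1 panel per gene, threat pools left of control pools and dim probe sets in grey. The bright points of the first 4 genes lie lower in both threat pools, those of Ankrd24 lie higher, and the grey points stay between 3.66 and 4.66.

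Prss23 was read by 2 bright probe sets that gave differences of unequal size. By 1437671_x_at, it measured 6.97 and 6.86 in threat pools 1 and 2, against 7.84 and 8.26 in control pools 1 and 2. The nearest threat and control pools were 0.87 apart, and the difference was -1.13 ± 0.16 (SE), or 2.19-fold lower in threat. By 1431057_a_at, it measured 6.83 and 7.24 in the threat pools, against 7.53 and 7.75 in the control pools. Here the nearest pools were 0.29 apart and the difference was -0.61 ± 0.17, or 1.52-fold lower in threat, and it was -0.40 without threat pool 1. The suffix _x_at marks a probe set some of whose probes also match other transcripts, and this was the one with the larger difference. The dim probe set, 1446560_at, measured 4.41 and 4.56 in threat and 4.66 and 4.57 in control, with the nearest pools 0.011 apart.

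Tmem123 gave the closest agreement between its probe sets, whose differences were 0.059 apart. By 1448623_at, it measured 6.31 and 6.66 in threat, against 7.26 and 7.34 in control, a difference of -0.82 ± 0.14 (SE) or 1.76-fold lower in threat. By 1417222_a_at, it measured 5.32 and 5.61 in threat, against 6.39 and 6.29 in control, a difference of -0.88 ± 0.13 or 1.84-fold lower in threat. In both probe sets threat pool 1 was the lowest, and the nearest pools were 0.61 and 0.68 apart.

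Clic4 was lower in the threat pools by all 3 of its probe sets, but by far more in threat pool 1 than in threat pool 2. By 1438606_a_at, it measured 8.40 and 9.28 in threat, against 9.71 and 9.74 in control, a difference of -0.89 ± 0.28 (SE). By 1423392_at, it measured 7.37 and 8.19 in threat, against 8.59 and 8.59 in control, a difference of -0.81 ± 0.26. By 1423393_at, it measured 8.61 and 9.49 in threat, against 9.54 and 9.65 in control, a difference of -0.55 ± 0.28, and here threat pool 2 lay only 0.054 below control pool 1. The control pools nearly coincided, and the threat pools were apart by 0.82 to 0.88. Without threat pool 1 the 3 differences were -0.45, -0.40 and -0.11, and without threat pool 2 they were -1.32, -1.22 and -0.98.

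Btg1 had the tightest pools of the 5 genes by the brightest of its probe sets. By 1437455_a_at, it measured 9.27 and 9.24 in threat, against 10.18 and 10.27 in control, a difference of -0.97 ± 0.09 (SE) or 1.96-fold lower in threat. The nearest threat and control pools were 0.91 apart, the widest distance among the 14 probe sets. By 1426083_a_at, it measured 9.11 and 9.26 in threat, against 9.63 and 9.71 in control, a difference of -0.48 ± 0.10 or 1.39-fold lower in threat, a smaller difference than by the other bright probe set. The dim probe set, 1442018_at, measured 4.44 and 4.07 in threat and 4.23 and 4.43 in control, with 1 threat and 1 control pool under the highest Bacillus control value. The mouse gene table lists Btg1b and Btg1c, once named as Btg1 pseudogenes, and whether the probes of Btg1 also bind their transcripts was not tested.

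Ankrd24 was the single gene of the 5 with higher values in threat. By 1425731_at, it measured 8.85 and 8.76 in threat, against 8.27 and 7.96 in control, a difference of 0.69 ± 0.13 (SE) or 1.61-fold higher in threat. By 1430776_s_at, it measured 9.80 and 9.75 in threat, against 9.46 and 9.08 in control, a difference of 0.51 ± 0.14 or 1.42-fold higher in threat. The suffix _s_at marks probes shared with another transcript. In both, control pool 2 was the lowest, and without it the differences were 0.54 and 0.32. By 1430902_at, all 4 pools lay under the highest Bacillus control value, at 3.93 and 3.66 in threat and 4.05 and 3.96 in control.

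**Figure D2:**
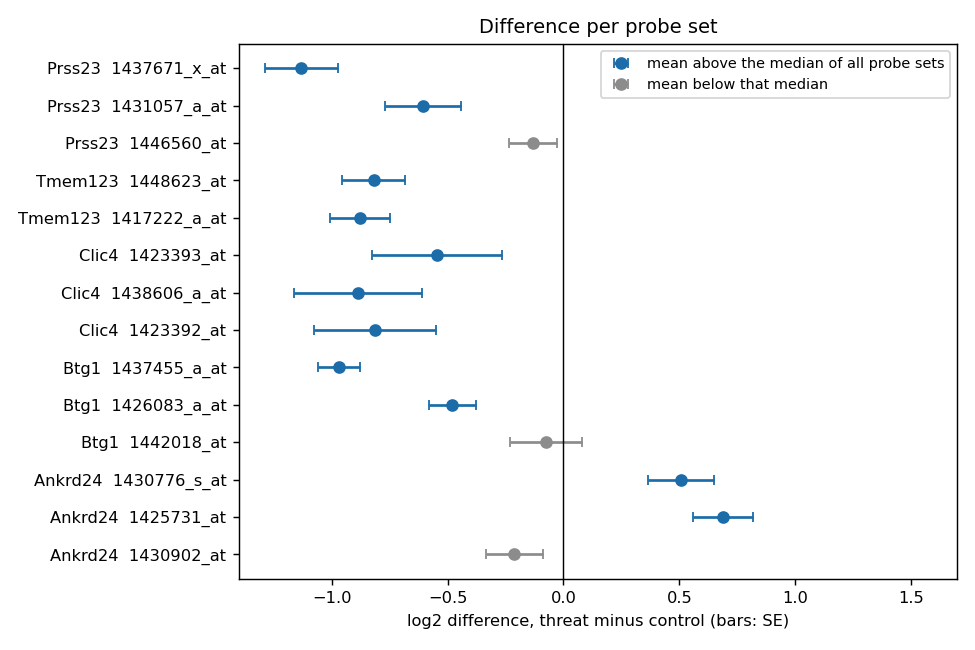
Log2 difference, threat minus control, of each probe set with its standard error, from 2 pools a side. Blue points are bright probe sets and grey points dim ones. The blue points of Prss23 and Btg1 are apart by 0.53 and 0.49, while those of Tmem123 almost coincide.

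Agreement between the bright probe sets of a gene in the side on which threat lay was found in other genes too. Of 5401 genes with at least 2 bright probe sets, 192 (3.55%) had all of them separate with threat lower, and 655 (12.1%) had all of them separate with threat higher. All bright probe sets were past 1.5-fold with separate pools and threat lower in 13 genes (0.241%), among them Prss23 and Tmem123. Clic4 and Btg1 each missed this by 1 probe set, at 1.46-fold and 1.39-fold. None of the 5401 genes met it with threat higher, Ankrd24 included. In limma's test over all 45037 probe sets, none reached an adjusted p of 0.05 (0%; Benjamini-Hochberg, smallest adjusted p = 0.278), and 4774 (10.6%) had an unadjusted p under 0.05.

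Sequence before the start of transcription is shown for Prss23, Btg1, Clic4 and Tmem123, the 4 lower genes, for each of which the RefSeq promoter table (GRCm38.p6) holds an entry at the start of the gene as annotated. Each line gives the 250 bases before that start, 5′ to 3′ on the gene's strand. Capitals mark the letters TATAAA (the TATA box), CCAAT (the CCAAT box), GGGCGG (the GC box) and TGACG (the core of a cyclic AMP response element) on either strand, and no 2 of these matches overlap.
Prss23, chr7:89527188-89527437, minus strand: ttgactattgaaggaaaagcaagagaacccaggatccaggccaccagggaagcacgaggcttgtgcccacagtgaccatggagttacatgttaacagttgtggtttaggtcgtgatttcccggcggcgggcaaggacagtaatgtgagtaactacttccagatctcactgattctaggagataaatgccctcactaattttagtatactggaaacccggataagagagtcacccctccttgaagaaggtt
Btg1, chr10:96616751-96617000, plus strand: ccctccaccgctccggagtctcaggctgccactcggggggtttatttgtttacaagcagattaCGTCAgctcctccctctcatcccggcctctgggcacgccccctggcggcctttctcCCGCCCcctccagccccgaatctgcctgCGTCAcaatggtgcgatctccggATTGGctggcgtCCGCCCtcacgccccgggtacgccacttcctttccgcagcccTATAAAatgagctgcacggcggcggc
Clic4, chr4:135272761-135273010, minus strand: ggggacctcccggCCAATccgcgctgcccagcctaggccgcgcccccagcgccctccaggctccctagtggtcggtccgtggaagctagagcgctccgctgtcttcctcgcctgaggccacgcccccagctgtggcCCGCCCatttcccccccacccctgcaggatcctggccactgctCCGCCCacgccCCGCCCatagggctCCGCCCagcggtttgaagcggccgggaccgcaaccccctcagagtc
Tmem123, chr9:7763827-7764076, plus strand: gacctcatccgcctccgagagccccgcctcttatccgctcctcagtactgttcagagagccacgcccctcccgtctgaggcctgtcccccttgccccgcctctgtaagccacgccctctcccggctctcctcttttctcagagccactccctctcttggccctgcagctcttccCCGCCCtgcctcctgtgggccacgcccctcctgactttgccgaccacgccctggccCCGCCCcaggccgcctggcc

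None of the 4 motifs was found in all 4 windows. The window of Prss23 held none of them, and the letters of the GC box had 2 matches in Btg1, 4 in Clic4 and 2 in Tmem123. Of 32851 promoter windows of the same length, 32.7% held them. Among the 4 windows shown, Btg1 alone held TATAAA (1 match, 12.4% of windows) and TGACG (2 matches, 17.8%). CCAAT stood once in Btg1 and once in Clic4 (33.8%). Prss23 has 7 entries and Tmem123 has 2, and the array does not tell their starts apart. Other entries of Prss23, not shown, did hold some of the motifs. The one at chr7:89517587-89517836 had 3 matches of the GC box letters and 2 of TGACG. The lack of matches in Prss23 thus holds for the window shown. The 2 entries of Ankrd24 do not lie at its annotated start and are not shown. A match of letters is a description of the window and not a binding site.

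The gaps between pools of the same group were not the measure that chose the genes. The choice of genes whose pools lie apart does limit how large these gaps can be beside the difference. By the threat gap, Clic4 stood apart from the other 4. As a mean of bright probe sets, threat pool 1 minus threat pool 2 was -0.86 for Clic4, -0.32 for Tmem123, -0.15 for Prss23, -0.06 for Btg1 and 0.07 for Ankrd24. The median size of this gap over all bright probe sets was 0.107. A gap as large as those of the 3 Clic4 probe sets was seen in 0.79% to 0.91% of bright probe sets. Control pool 1 minus control pool 2 was -0.32 for Prss23, -0.08 for Btg1, -0.04 for Clic4, 0.01 for Tmem123 and 0.34 for Ankrd24, beside a median size of 0.126. The 2 largest of these control gaps, those of Ankrd24 and Prss23, thus ran in opposite directions.

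Mobp, Acta2 and Ttr, which mark myelinating oligodendrocytes, smooth muscle and choroid plexus, were set beside the 5 genes. With 4 pools, no correlation across pools is given. By the brightest of its probe sets, Mobp measured 9.60 and 10.05 in threat, against 11.41 and 10.85 in control. Acta2 measured 8.16 and 8.81 in threat, against 9.68 and 10.96 in control. Ttr measured 6.15 and 6.18 in threat, against 9.05 and 6.48 in control, so that its difference of -1.60 was -0.32 without control pool 1.

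The order of the control pools differed between these 3 genes. Control pool 1 was above control pool 2 by 0.57 for Mobp and by 2.57 for Ttr, and for Acta2 the gap was -1.29. None of the 4 lower genes had a control gap as large as any of these, the nearest in size being the -0.42 of Prss23 by 1437671_x_at. The choice of genes whose pools lie apart limits such gaps, and Mobp, Acta2 and Ttr differed by more. This comparison thus in part repeats the choice. Threat pool 1 was below threat pool 2 for Mobp (-0.45) and Acta2 (-0.65) by the probe set with the highest mean. It was also below for the 4 lower genes by another measure, the mean of bright probe sets, from -0.86 for Clic4 to -0.06 for Btg1. By the probe set with the highest mean, the gap was -0.88 for Clic4 and -0.34 for Tmem123. For Btg1 (0.03) and Prss23 (0.11), threat pool 1 was then above threat pool 2. Among the 9 bright probe sets of the 4 lower genes, threat pool 1 was the lowest pool in 7 and control pool 2 the highest in 7. By 1451580_a_at, its brightest, the threat pools of Ttr were 0.027 apart. By 1454608_x_at, 1459737_s_at and 1455913_x_at, the threat gap of Ttr was -1.05, -0.60 and -0.56.

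**Figure D3:**
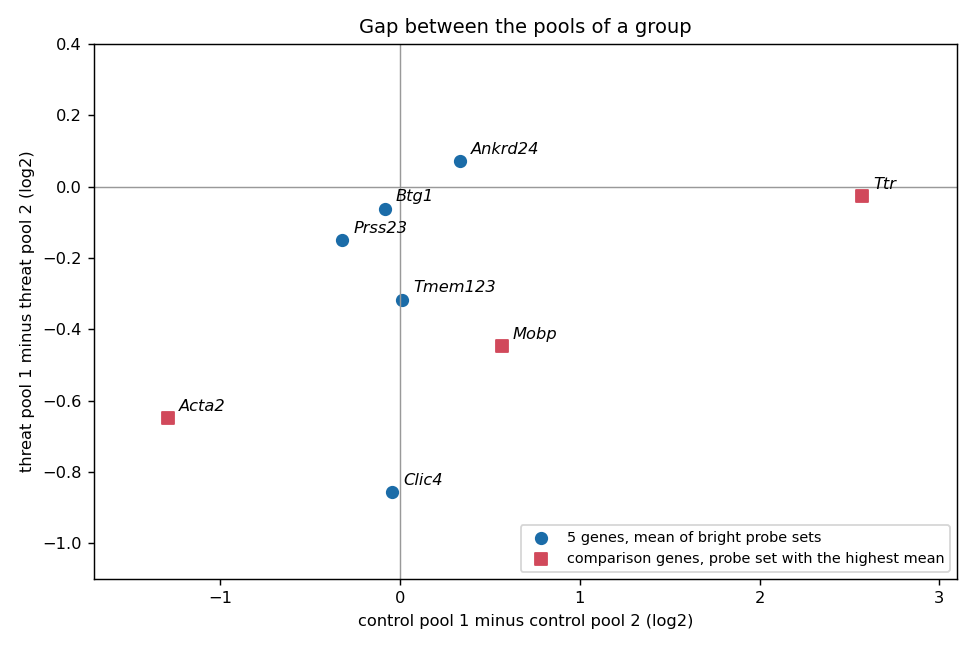
Gap between the pools of the control group (horizontal axis, log2) against that of the threat group (vertical axis, log2). Blue points are the 5 genes by the mean of their bright probe sets, and red squares are Mobp, Acta2 and Ttr by the probe set with the highest mean. Clic4 lies low at -0.86 on the vertical axis, and Mobp, Acta2 and Ttr lie farther to the sides than any of the 5 genes.

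Markers of myelin, and most of those of smooth muscle and pericytes, were lower in the same contrast. All 12 measured genes of the myelinating oligodendrocyte list had separate pools with threat lower and a median difference of -0.94, led by Mobp (-1.31), Cldn11 (-1.30) and Mal (-1.16). Their mean level was 8.75 and 8.95 in threat, against 10.02 and 9.54 in control. Their median was -0.64 without control pool 1, -1.24 without control pool 2, -0.88 without threat pool 1 and -1.01 without threat pool 2. Of 12 genes of the smooth muscle and pericyte list, 10 had both threat pools below both control pools and 0 had them above, with a median of -0.91, led by Acta2 (-1.83), Tagln (-1.44) and Myh11 (-1.24). Their mean level was 7.04 and 7.24 in threat, against 7.63 and 8.27 in control. Without control pool 2 their median was -0.49, and Acta2, Tagln and Myh11 were at -1.19, -0.81 and -0.72. The smallest difference of the 10 was that of Rgs5 (-0.17). The 2 genes above 0, Kcnj8 (0.04) and Abcc9 (0.10), had pools that overlapped. By the probe set with the highest mean, 18.8% of all genes had separate pools with threat lower. No gene of these lists passed limma's test over all probe sets.

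The other lists were nearer to 0 or more uneven. Of 13 endothelial genes, 6 had both threat pools below both control pools and 0 had them above (median -0.28), led by Vwf (-1.08), Pecam1 (-0.63) and Emcn (-0.41). Their mean level was 6.47 and 6.89 in threat, against 6.72 and 7.23 in control. Their median was -0.06 without control pool 2, where Vwf, Pecam1 and Emcn were at -0.66, -0.37 and -0.17, and -0.18 without threat pool 1, -0.43 without threat pool 2 and -0.48 without control pool 1. The 10 meningeal fibroblast genes had no separate pools, and their mean level was 7.71 and 9.13 in threat, against 8.12 and 9.30 in control, low in pool 1 of both groups. Their median of -0.24 was 0.29 without control pool 2 and 0.41 without threat pool 1, on the other side of 0, and -0.93 and -0.92 without control pool 1 and threat pool 2. Of 10 genes of choroid plexus and ependyma, 6 were separate and lower, and the median was -0.47, led by Ttr (-1.60), Tmem212 (-1.17) and Ccdc153 (-0.88). Ttr was the single bright gene of the 6. All pools of Slc4a5 and Otx2 were at background, and Otx2 was among the 6. Foxj1 and Tmem212, also among them, each had 2 pools no higher than the highest Bacillus control value. The median was -0.31 without control pool 1. Their mean level was 4.75 and 4.86 in threat, against 5.58 and 5.11 in control.

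Lists of glia other than myelinating cells, and of neurons, had medians between -0.17 and 0.04. Of 8 oligodendrocyte precursor genes 3 had separate pools with threat lower and 1 had them higher. The same counts were 4 and 0 of 9 microglial genes, 4 and 1 of 10 astrocyte genes, 2 and 1 of 9 excitatory neuron genes and 2 and 1 of 9 interneuron genes. These medians moved with the pool left out, for precursors between -0.27 and -0.08, microglia between -0.21 and -0.07, astrocytes between -0.17 and -0.01, excitatory neurons between -0.05 and 0.08 and interneurons between -0.30 and 0.06. The excitatory neuron median was below 0 without control pool 1, and the interneuron median was above 0 when either control pool 1 or threat pool 2 was left out. The mean level of the excitatory neuron list was 10.12 and 10.08 in threat and 10.11 and 10.12 in control. Single genes differed by more than these medians. The largest differences were those of Enpp6 (-0.44, dim), Olig1 (-0.37) and Sox10 (-0.25) among precursors, and C1qa (-0.33), C1qb (-0.29) and C1qc (-0.19) among microglia. Among astrocytes they were Gfap (-0.59), Gjb6 (-0.36) and Gja1 (-0.36). Among neurons they were Tbr1 (-0.53), Neurod6 (-0.39) and Slc17a7 (0.23), and Gad1 (-0.42), Reln (0.36) and Pvalb (-0.30). Olig1, Gjb6, Reln and Pvalb had pools that overlapped. What part any of these lists has in the differences of the 5 genes was not tested.

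Genes whose pattern over the 4 pools was most like that of each of the 5 were looked for among 11930 bright genes. Likeness was the mean absolute difference between both genes' deviations from their own 4-pool mean, on the log2 scale, by the probe set with the highest mean. The nearest to Prss23 by 1437671_x_at, some of whose probes also match other transcripts, were Btg1 (0.125), the myosin light chain kinase gene Mylk (0.135) and Abtb2 (0.137). Neighbours by its other bright probe set, 1431057_a_at, which had a smaller difference (-0.61), were not looked for. Nearest to Tmem123 were the Src-family kinase gene Yes1 (0.040), Tmem196 (0.057) and Ctla2a (0.065). Nearest to Btg1 were Erbin (0.056), Mcam (0.081) and Snrnp40 (0.084), of which Mcam is on the smooth muscle and pericyte list. Since the lower genes were chosen for the same contrast, their likeness to each other in part repeats the choice.

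Clic4 and Ankrd24 had other neighbours. Nearest to Clic4 were Plekhg1 (0.056), the cytosolic phospholipase gene Pla2g4a (0.056) and the lysozyme gene Lyz1 (0.060), whose near-identical copy Lyz2 may share its signal. Plekhg1 measured 6.55 and 7.29 in threat, against 7.34 and 7.43 in control, and Pla2g4a measured 5.19 and 6.02 in threat, against 6.02 and 6.32 in control. Both were picked as nearest to Clic4 by 1423393_at, and so shared its low threat pool 1 and its threat pool 2 close to control. By that probe set, threat pool 2 of Clic4 lay 0.054 below the nearest control pool. By 1438606_a_at and 1423392_at it lay 0.44 and 0.40 below, and neighbours by these probe sets were not looked for. Nearest to Ankrd24, by 1430776_s_at alone, were the transcription factor gene Sp4 (0.026), Eml2 (0.026) and Slf1 (0.039). Sp4 measured 7.81 and 7.84 in threat, against 7.49 and 7.14 in control, so that control pool 2 was again the lowest.

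By the same measure Mobp stood at place 291 of 11930 for Btg1, 436 for Prss23, 817 for Tmem123 and 6339 for Clic4. Acta2 stood at place 571 for Prss23, 6132 for Btg1, 11305 for Tmem123 and 11912 for Clic4. Ttr stood between place 11917 and 11929 for these 4 genes. For Ankrd24, which lay in the other direction, all 3 stood at place 11915 or beyond. The measure counts the size of a difference as well as its shape, and Mobp, Acta2 and Ttr all differed by more than the 5 genes. The places for each gene rest on a single probe set and were not found for its other probe sets. For Clic4 this was 1423393_at, its probe set with the smallest difference (-0.545). For Prss23 it was 1437671_x_at, its probe set with the largest (-1.13).

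Relatives and partners of the 5 genes showed no common direction by the sign of their differences. Of 34 other genes on 6 lists, 18 lay above 0 and 16 below, 4 had separate pools with threat higher and 10 with threat lower, and the median difference was 0.02, the same as over all genes (0.02). Over all genes the shares were 26.2% with threat higher and 18.8% with threat lower, an order opposite to that of the relatives. In limma's fit to the whole array none of the 34 reached an adjusted p of 0.05 (smallest adjusted p = 0.433), and 4 had an unadjusted p under 0.05.

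Of 4 measured relatives of Btg1 in the BTG and TOB family, which share its antiproliferative domain, 2 had separate pools with threat lower. Tob2 measured 8.17 and 8.25 in threat, against 8.67 and 9.30 in control, a difference of -0.77 ± 0.21 (SE). Tob1 measured 9.60 and 9.55 in threat, against 9.81 and 10.06 in control, a difference of -0.36 ± 0.12. Without control pool 2, Tob2 was at -0.46 and Tob1 at -0.23. Btg2, an immediate early gene, lay the other way at 0.32 ± 0.27, with pools that overlapped at 10.01 and 10.48 in threat and 9.57 and 10.27 in control. Without control pool 1 its difference was -0.03. Among CCR4-NOT subunits, the poly(A)-binding protein gene Pabpc1 and the methyltransferase gene Prmt1, 10 of 12 lay above 0. Their median was 0.09, and 0.02 without control pool 1. Over all bright probe sets the median was 0.06, and 32.3% had separate pools with threat higher. With cyclic loess, some of the 10 lay below 0. Cnot7, a deadenylase subunit that BTG proteins bind, was at -0.11 (-0.07 without threat pool 2) and its paralogue Cnot8 at 0.09 (0.01 without threat pool 1). Cnot11 (0.30; 0.19 without control pool 2), Cnot10 (0.24) and Cnot9 (0.19) had separate pools with threat higher, and Cnot2 and Cnot7 with threat lower. The largest difference, 0.62 for Prmt1, rested on control pool 2, without which it was -0.04.

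Relatives of the other genes lay between -0.56 and 0.21. Of 4 other CLIC genes, Clic6, a choroid plexus marker, was at -0.56 ± 0.15 (SE; -0.36 without control pool 1), Clic1 at -0.22 ± 0.13 and Clic5 at 0.13 ± 0.10 (0.05 without control pool 2). Clic1, the single bright one of the 4, measured 7.66 and 7.93 in threat, against 7.93 and 8.10 in control, and was at -0.09 without threat pool 1. Of 9 other secreted or related serine proteases, 5 lay above 0 and 4 below, with Htra1 at -0.24, Prss35, the nearest relative of Prss23, at 0.21 and Htra2 at 0.21. Prss35 was at -0.33 without control pool 2 and -0.09 without threat pool 1, Htra1 at -0.10 without threat pool 1, and Htra2 at 0.07 without threat pool 1. The sialomucin gene Cd164 was at -0.21 ± 0.11 and measured 10.24 and 10.45 in threat, against 10.53 and 10.59 in control, while Cd164l2 was at 0.00. Triobp, the partner of Ankrd24, lay lower in threat at -0.20 ± 0.10, at 6.71 and 6.67 in threat against 6.81 and 6.98 in control. Rai14 (0.20) and Uaca (-0.11), which share its ankyrin and coiled-coil layout, had pools that overlapped. Without control pool 2, Triobp was at -0.12, Rai14 at -0.10 and Uaca at 0.32, and without threat pool 1, Cd164 was at -0.11.

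**Figure D4:**
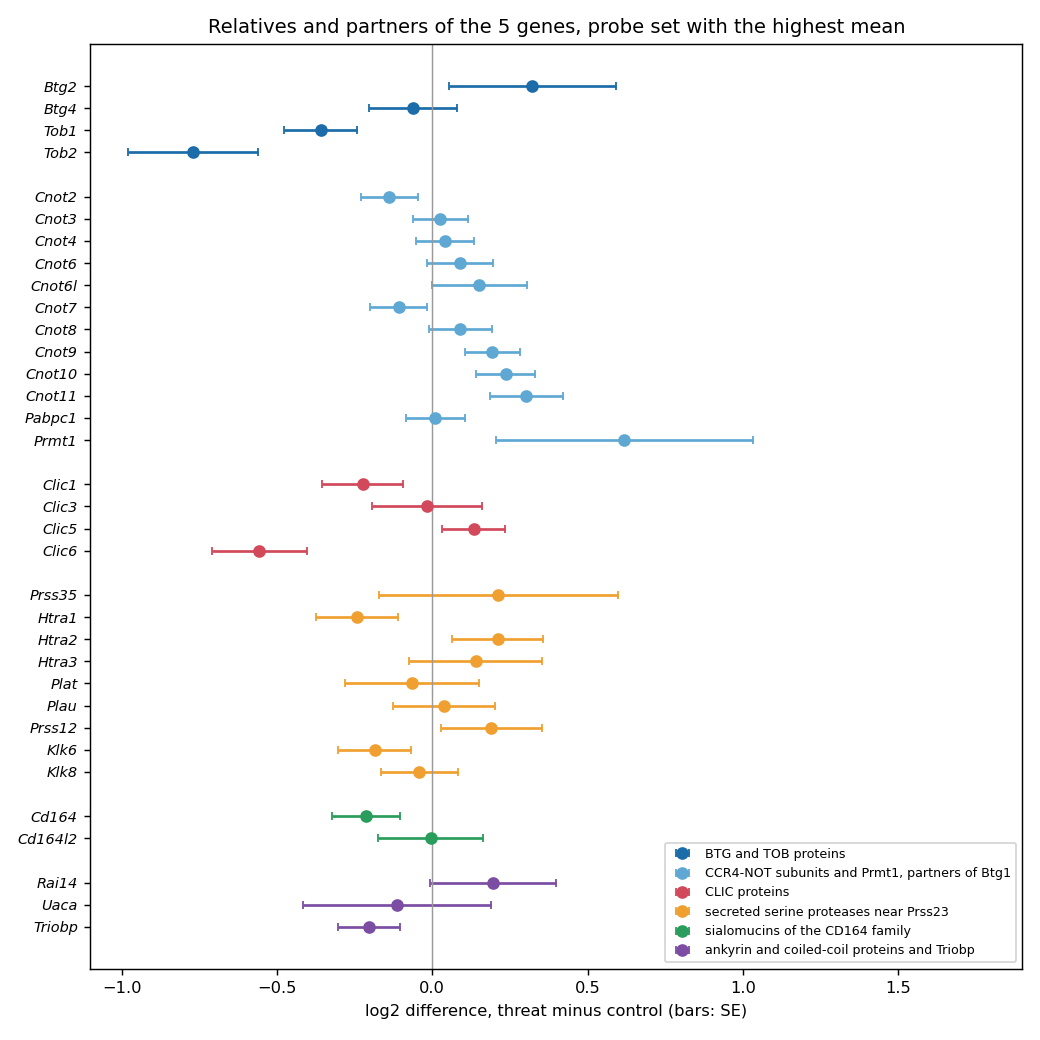
Log2 difference, threat minus control, with its standard error, of the 34 relatives and partners by the probe set with the highest mean, coloured by list, from 2 pools a side. The points lie on both sides of 0, from -0.77 for Tob2 to 0.62 for Prmt1, whose error bar is long.

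All bright probe sets had separate pools, so leaving out a pool could not turn the direction of any of the 5 genes. The size of the difference did change, and that of Clic4 depended on 1 pool. By the mean of bright probe sets, its difference of -0.75 was -0.32 without threat pool 1 and -1.18 without threat pool 2. That of Btg1 stayed between -0.77 and -0.68, that of Tmem123 between -1.01 and -0.69, that of Prss23 between -1.03 and -0.71 and that of Ankrd24 between 0.43 and 0.77. For Ankrd24 the lowest value was the one without control pool 2.

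**Figure D5:**
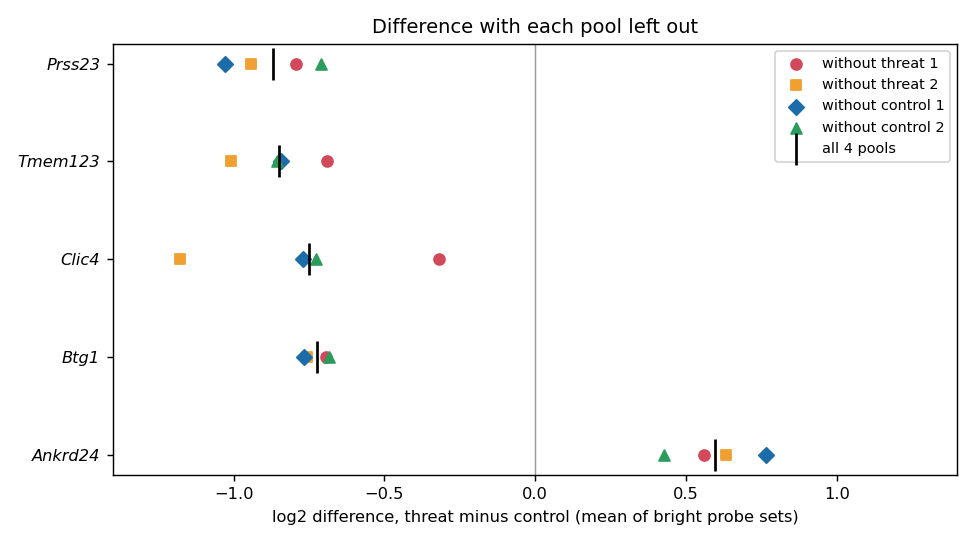
Log2 difference, threat minus control, of the mean of bright probe sets of each gene, with all 4 pools (vertical bar) and without each pool (coloured symbols). The symbols of Btg1 lie together, and those of Clic4 spread from -1.18 to -0.32.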

How the data were processed

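Total RNA of prefrontal cortex, pooled from 5 mice a sample, was read on 4 arrays, per the labels. The authors deposited log2 values, 1 for each probe set on each array. RMA is named by the submitters' processing notes, with version and settings not given in the sources used here. Of 45101 probe sets, 64 controls were left out. Symbols came from the platform annotation. Standard errors and p-values came from limma 3.58.1 under R 4.3.3 (linear fit with eBayes, 2-sided, Benjamini-Hochberg adjustment over 45037 probe sets), tested on simulated data. Tables and figures were made with Python 3.11.15. A gene's probe sets were averaged, and relatives were read by the probe set with the highest mean. Named genes were the 5 genes, Mobp, Acta2 and Ttr, the 3 largest differences per described list and the 3 likest patterns per gene. Cnot2, Cnot7, Cnot8, Cnot9, Pabpc1, Slc4a5, Otx2, Foxj1, Rgs5, Kcnj8 and Abcc9 were added after their values were seen. The genes and lists were chosen with earlier results of these data known. Alternatives were other scalings, probe set choices, a pool number block, an intensity trend and each pool left out.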

Additional observations from a re-analysis of the deposited data

How the results depend on the processing

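Direction did not turn for any of the 5 genes under other choices of probe sets, median centring or cyclic loess. The replicate block could not turn it, as each group has pools 1 and 2. Leaving out a pool could not either, as the pools of each gene mean were separate. The mean over all probe sets was -0.62 for Prss23, -0.85 for Tmem123, -0.75 for Clic4, -0.51 for Btg1 and 0.33 for Ankrd24, and the block by pool number gave the same 5 values. With the probe set of highest mean in its place, it was -1.13 for Prss23, -0.97 for Btg1 and 0.51 for Ankrd24, and with bright probe sets alone -0.87, -0.72 and 0.60. Without _x_at and _s_at probe sets, Prss23 was at -0.37. Leaving out 1 pool gave -0.71 to -0.53 for Prss23, -1.01 to -0.69 for Tmem123, -1.18 to -0.32 for Clic4 (-0.32 without threat pool 1), -0.57 to -0.45 for Btg1 and 0.20 to 0.46 for Ankrd24 (0.20 without control pool 2). Of the 14 probe sets, 13 had separate pools, 11 with median centring, 12 with cyclic loess and 13 or 14 without a pool. Both scalings lost the dim probe set of Prss23, and median centring also that of Ankrd24. The 374 probe sets past 1.5-fold with separate pools came to 48 past 2-fold, and to 673 to 818 without a pool, where fewer pools have to be separate. No probe set passed limma's adjusted p of 0.05 in any fit; the replicate block gave 0, with 6054 at an unadjusted p under 0.05 against 4774. Across probe sets, the gap between pools 1 and 2 in threat correlated with that in control (r = 0.33 over all, r = 0.44 over bright ones). With 2 pairs this is a hint from the data and not the design. Chosen after seeing the data, leaving out a pool moved Btg2 between -0.027 and 0.67 and Prmt1 between -0.041 and 1.28; the cause was not tested.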
